A study of Mus musculus with 18 samples.

Results

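The enzymes that write and erase methyl and acetyl marks on histones, and those that methylate DNA or oxidize its methyl groups, were followed in small intestinal crypts after deletion of the arginine methyltransferase gene Prmt1. They were taken from the count table by gene name, as the Kdm1 to Kdm8, Kmt2, Kmt5, Hdac, Sirt1 to Sirt7, Dnmt1 and Dnmt3, Tet1 to Tet3, Setd, Ezh, Suv39h, Ehmt and Kat2 to Kat8 families. The name pattern found 82 genes, and 8 were left out: Kdm5c, Kdm5d and Kdm6a, which lie on the sex chromosomes, and 5 pseudogenes. This left 74 genes of 55335, and 69 of them had enough counts to be tested. The 5 that did not were Dnmt3c, Dnmt3l, Kdm4d, Dnmt3bos and Kdm4dl, with at most 10 counts in any library.

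KO mice carried Prmt1 fl/fl, in which both copies of the gene have LoxP sites, together with CreERT2, a Cre recombinase activated by tamoxifen, under the villin promoter. WT mice were Prmt1 fl/fl littermates without Cre. All mice, WT included, were 8 to 12 weeks old and received tamoxifen, 2 mg each time. Days are counted from the first injection, and crypts of day 2 came after 2 injections, those of days 7 and 14 after 5. Each of the 6 genotype by day groups had 3 libraries of ribosomal RNA-depleted total RNA from purified crypts, 1 library per mouse and 18 in all. The villin promoter is active in the intestinal epithelium, so immune and stromal cells carried along with the crypts kept the gene.

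Chromatin enzymes act in opposing pairs. Methyltransferases and acetyltransferases add marks to histone tails, demethylases and deacetylases remove them, and the DNMT and TET enzymes do the same for methylcytosine in DNA. In the intestinal crypt, where stem cells give rise to absorptive and secretory lineages, several of these enzymes are known to set which lineage genes can be switched on. PRMT1 itself places an asymmetric dimethyl mark on arginines of histone H4 and of many other proteins.

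Total counts were 12844642 to 31493484 per library, and the members held 0.335% to 0.486% of them. Pearson correlations of log2 CPM, which are counts scaled to the effective size of each library, within a group were 0.971 to 0.9895. Prmt1, counted over the whole gene, stood at 14.4 ± 1.36 CPM in KO and 26.6 ± 0.52 in WT at day 2 (SD, n = 3 each), at 15.8 ± 1.99 and 23.8 ± 1.93 at day 7, and at 15.4 ± 0.639 and 25.3 ± 5.2 at day 14. KO libraries thus held 54.1%, 66.4% and 60.9% of the WT level, and the exact two-sided permutation test gave p = 0.1 on each day, the smallest value that 3 against 3 allows. By edgeR's quasi-likelihood test the log2 fold changes were −0.89, −0.59 and −0.72, with adjusted p of 0.0264, 0.00675 and 0.00329. In KO at day 2, replicate 2 stood apart from the other two libraries for many members. The summed level of the 7 KMT2 and SET1 genes, for instance, was 1209 CPM there and 782 and 815 CPM in the other two.

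Members differed widely in level. Per kilobase of exon, the highest means over the 9 WT libraries were those of Ehmt2, a histone H3 lysine 9 methyltransferase, at 20.1 ± 1.93 CPM per kb (SD, n = 9), Kmt5a, which monomethylates histone H4 lysine 20, at 17.7 ± 1.93, and Dnmt1, the maintenance DNA methyltransferase, at 16.9 ± 1.92. Kmt2d, a histone H3 lysine 4 methyltransferase of enhancers, followed at 16.8 ± 3.9 CPM per kb. The ranges of these 4 genes overlapped between neighbours in the order. Among the members tested, the low end was held by Hdac9 at 0.0221 ± 0.0244 CPM per kb, which is at most 18 counts in a library, and Tet1 at 0.237 ± 0.0375.

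Within families the order was often steep. Dnmt1 at 16.9 CPM per kb was followed by the de novo methyltransferases Dnmt3a at 4.47 ± 0.428 and Dnmt3b at 0.912 ± 0.164, with no overlap of their ranges over the 9 libraries. Of the 5-methylcytosine dioxygenases, Tet3 stood at 12.8 ± 1.57, Tet2 at 3.84 ± 0.382 and Tet1 at 0.237 CPM per kb, again without overlap. The catalytic subunits of Polycomb complex 2 were close, with Ezh2 at 7.4 ± 0.723 and Ezh1 at 6.02 ± 0.375 CPM per kb, and their ranges overlapped. Among class I deacetylases, Hdac3 at 13.4 ± 1.58, Hdac1 at 10.4 ± 1.26 and Hdac2 at 8.56 ± 1.14 CPM per kb lay far above Hdac8 at 1.66 ± 0.116. Setd4 at 1.04 ± 0.246 CPM per kb was the lowest of the other SET domain genes, and its next neighbour Setd7 stood at 4.93 ± 0.613.

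**Figure D1:**
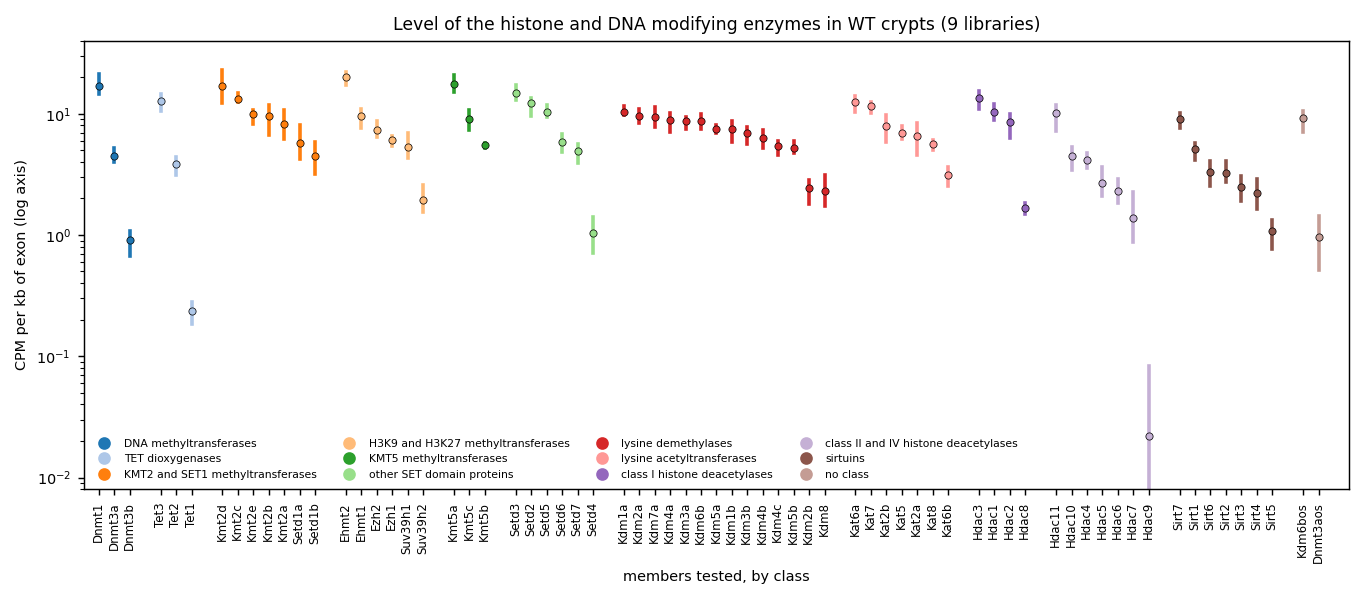
Mean level of the 69 members tested in WT crypts, in CPM per kb of exon on a log axis, grouped by enzyme class, with vertical bars from the lowest to the highest of the 9 WT libraries. Ehmt2, Kmt5a, Dnmt1 and Kmt2d stand highest, and Tet1 and Hdac9 lowest, with the bar of Hdac9 cut at the lower edge because it reaches 0.

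The first question was whether deletion of Prmt1 altered these enzymes at all, and when. At day 2 none of the 69 passed edgeR's quasi-likelihood test at an adjusted p under 0.05, with 2 at an unadjusted p under 0.05 and 0 by DESeq2, where 0.0328% of all 21349 genes tested passed. Groups did not overlap for 9 members (13%), against 8.16% of all genes. At day 7, 12 members (17.4%) passed, 6 higher and 6 lower in KO, where 17.3% of all genes passed, 7.11% higher and 10.2% lower. At day 14, 4 members (5.8%) passed, 2 in each direction, where 7.92% of all genes passed, 3.23% higher and 4.69% lower. Without adjustment, 22 members had a p under 0.05 at day 7 and 15 at day 14, where 29.9% and 21.6% of all genes had. The share of members changed was therefore close to that of all genes on both days.

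The median log2 fold change of the 69 members was 0.03, −0.02 and −0.02 at days 2, 7 and 14, against 0.00, 0.02 and 0.00 for all genes. Groups did not overlap for 27 members (39.1%) at day 7, against 33.6% of all genes, and for 22 (31.9%) at day 14, against 26.5%. Because these were whole crypts, fewer cells of a type and less RNA per cell cannot be told apart.

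Marker genes of several crypt cell types moved with genotype. Summed levels of 15 enteroendocrine markers were 339 to 356 CPM in WT and 749 to 936 in KO at day 7, and 309 to 371 and 878 to 1015 at day 14. Summed levels of 15 stem cell markers were 2341 to 2987 CPM in WT and 784 to 1580 in KO at day 7, and of 7 Paneth cell markers 7868 to 13613 and 1353 to 3580. By the test, 14 of 15 enteroendocrine markers were higher, and 11 of 15 stem cell and 7 of 7 Paneth cell markers lower, in KO at day 7, and 15, 3 and 1 of them respectively at day 14. Summed levels of 12 enterocyte markers were 12952 to 15359 CPM in WT and 18335 to 28553 in KO at day 7. Of these markers 11 had a log2 fold change above 0 (median 0.73), with 2 passing as higher and 1 as lower, and at day 14 there were 10 above 0 (median 0.69), with 1 passing as higher. Of 7 goblet cell markers 2 passed as lower at day 7, while 5 had a log2 fold change above 0 (median 0.17). At day 14, 1 passed as lower and 4 were above 0 (median 0.13). The 10 crypt epithelium markers, of which 3 were lower at day 7, summed to 5521 to 10409 CPM in every library. Of 26 proliferation genes 2 were higher and 1 lower at day 7 (median log2 fold change −0.19), and 5 lower at day 14 (median −0.33). None of 10 immune markers passed on either day, with 1 and 2 at an unadjusted p under 0.05. Of 9 stromal markers tested Pecam1 passed at day 7, and those markers summed to 182 CPM at most. The part of these shifts in the results below was not tested.

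Kmt5c, Hdac5, Setd4 and Kdm5b passed on both days, the first pair lower and the second pair higher in KO. Kmt5c (ENSMUSG00000059851.15) lies at chr7:4740115-4747514 (mm10, plus strand) and Hdac5 (ENSMUSG00000008855.17) at chr11:102194432-102230166 (minus strand). Setd4 (ENSMUSG00000022948.16) lies at chr16:93583457-93604063 (minus strand) and Kdm5b (ENSMUSG00000042207.17) at chr1:134560171-134635285 (plus strand). RefSeq windows of the 250 bases before the gene start (GRCm38.p6) were found for 58 of the 74 members, in 86 windows. They held a median of 17 CG dinucleotides, against 6 in all 32851 windows. The windows of Kmt5c (chr7:4739877-4740126, plus strand), Hdac5 (chr11:102230173-102230422, minus strand) and Kdm5b (chr1:134559928-134560177, plus strand) are shown because these genes moved on both days. That of Setd4 lies for the most part inside the gene as the count table's annotation draws it and is not shown. Capitals mark every match, on either strand, to the GC box letters GGGCGG or the CCAAT box letters CCAAT.
Kmt5c: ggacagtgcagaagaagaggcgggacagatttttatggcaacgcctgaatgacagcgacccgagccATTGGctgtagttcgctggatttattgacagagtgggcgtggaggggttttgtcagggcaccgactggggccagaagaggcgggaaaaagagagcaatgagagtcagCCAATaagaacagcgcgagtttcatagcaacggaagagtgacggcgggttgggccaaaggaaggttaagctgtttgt
Hdac5: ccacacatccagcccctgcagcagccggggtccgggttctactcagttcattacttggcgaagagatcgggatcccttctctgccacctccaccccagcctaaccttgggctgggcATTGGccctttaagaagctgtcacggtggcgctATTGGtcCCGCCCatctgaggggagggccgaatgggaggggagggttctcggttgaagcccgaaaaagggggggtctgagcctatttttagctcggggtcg
Kdm5b: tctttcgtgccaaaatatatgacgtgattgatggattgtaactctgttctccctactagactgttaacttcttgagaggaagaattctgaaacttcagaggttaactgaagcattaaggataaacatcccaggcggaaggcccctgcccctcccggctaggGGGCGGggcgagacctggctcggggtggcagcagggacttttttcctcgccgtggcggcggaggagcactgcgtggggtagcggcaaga

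The Kmt5c window held CCAAT letters in 2 places and no GC box letters, and that of Hdac5 held CCAAT letters in 2 places and GC box letters in 1. The Kdm5b window held GC box letters in 1 place and no CCAAT letters. GC box letters were present in 32.7% of all windows and in 61.6% of member windows, and CCAAT letters in 33.8% and 37.2%. The TATA box letters TATAAA, present in 12.4% of all windows, the E-box letters CACGTG, in 6.02%, and the cyclic AMP response element letters TGACGTCA, in 1.55%, were absent from these 3 windows. Such matches describe the letters and not occupancy by a factor.

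Among the histone H4 lysine 20 methyltransferases, Kmt5c was lower in KO. KMT5C places the trimethyl mark that is typical of constitutive heterochromatin. Its level was 40.9, 33.5 and 38.2 CPM in the 3 WT libraries at day 7 and 19.3, 18.9 and 22.7 in the 3 KO libraries. At day 14 it was 40.5, 40 and 43.2 CPM in WT and 21.2, 20.1 and 23.3 in KO. All 6 KO libraries of days 7 and 14 lay below the lowest of the 9 WT libraries of any day, 29.2 CPM.

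The day 7 fold in KO was 0.54, a log2 fold change of −0.89 (SE 0.154) with an adjusted p of 0.000556. The day 14 fold was 0.522, or −0.94 (SE 0.155), with an adjusted p of 0.000718. Every alternative fit and every fit without 1 library kept the call on both days. At day 2 the KO libraries stood at 24.8, 42 and 27.2 CPM around the WT values of 29.2 to 29.8, with a log2 fold change of 0.09 (adjusted p = 0.999). WT levels were 29.5 ± 0.305 CPM at day 2 and 41.2 ± 1.76 at day 14 (n = 3 each), without overlap, and this difference missed the threshold by edgeR's test (log2 fold change 0.49, adjusted p = 0.0882) and passed it by DESeq2. Kmt5b, the relative that dimethylates the same residue, stood at 81.6 ± 3.93 CPM in WT and 91.7 ± 10.8 in KO at day 7 (log2 fold change 0.17, adjusted p = 0.34), and Kmt5a gave 0.17 (adjusted p = 0.429).

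Setd4, a little characterized SET domain methyltransferase, was higher in KO. It was low in WT, at 7.56, 5.56 and 7.36 CPM at day 7, and stood at 16.1, 13.1 and 13.9 CPM in KO. At day 14 it was 4.23, 4.58 and 6.26 CPM in WT and 9.38, 7.38 and 10.1 in KO. The KO libraries of day 7 lay above all 9 WT libraries, and those of day 14 above the WT libraries of their day, with the lowest of them just inside the range of the 9 (3.83 to 7.56 CPM).

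The day 7 fold was 2.09, a log2 fold change of 1.06 (SE 0.203) with an adjusted p of 0.00127, and the day 14 fold was 1.77, or 0.82 (SE 0.211) with an adjusted p of 0.0191. At day 2 the log2 fold change was 0.02 (adjusted p = 0.999). The day 7 call held without any 1 library, whereas that of day 14 was lost without WT replicate 1 or 2 or KO replicate 1 or 3, with an adjusted p of up to 0.0897. The other 5 SET domain genes, Setd2, Setd3, Setd5, Setd6 and Setd7, did not pass on any day.

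**Figure D2:**
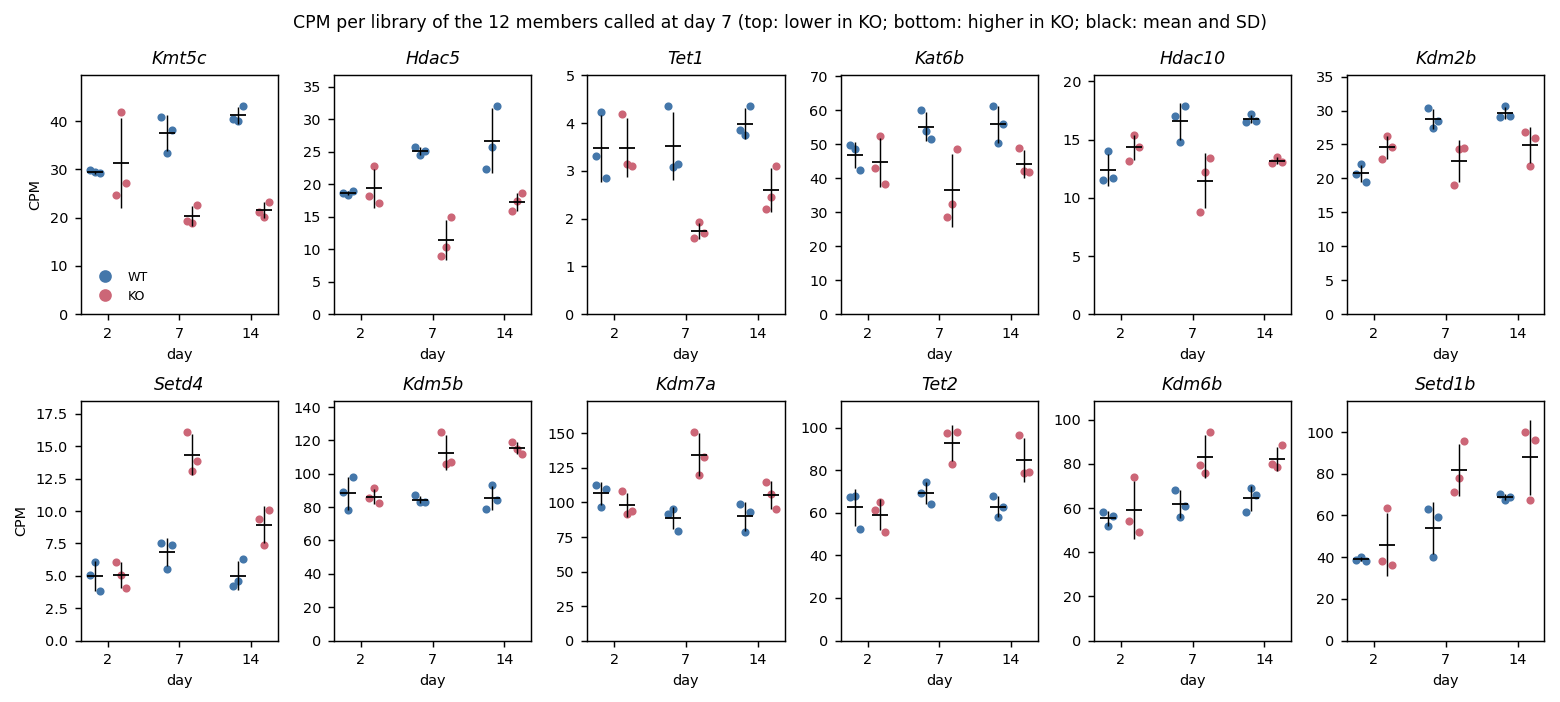
CPM of the 12 members that passed at day 7, by day, with WT in blue, KO in red, 1 point per library and black marks for the mean and SD of 3 libraries. In the top row (lower in KO) Kmt5c and Tet1 show the KO libraries of day 7 well below all WT libraries, and in the bottom row (higher in KO) Setd4 reaches 13.1 to 16.1 CPM at day 7 against 3.83 to 7.56 in WT.

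Of the 7 genes of the KMT2 and SET1 class, 1 passed at day 7 and 0 at day 14, where 17.3% and 7.92% of all genes passed. At an unadjusted p under 0.05 were 2 and 1 of them, where 29.9% and 21.6% of all genes were. Setd1b, a catalytic subunit of a SET1 complex, was 63.1, 39.9 and 59.5 CPM in WT and 71.4, 78.1 and 95.6 in KO at day 7, without overlap (log2 fold change 0.59, SE 0.201, adjusted p = 0.0486). This call was lost in 5 of the 6 fits without 1 library of that day, with an adjusted p of up to 0.214, and in 3 of 8 alternative fits. Setd1a gave 0.47 (adjusted p = 0.0576) and passed with no filter on low counts and with the replicate number as a block, but 52.3% of its exonic bases are shared with other genes and its counts cannot be separated from theirs. Kmt2d stood at 456, 346 and 410 CPM in WT and 682, 431 and 615 in KO at day 14, where the groups overlapped (log2 fold change 0.51, adjusted p = 0.179).

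The H3 lysine 9 and lysine 27 methyltransferases gave no call on any day. Of their 6 members, 0 passed edgeR's test at day 7 and 0 were at an unadjusted p under 0.05, and 0 and 1 did so at day 14. Of all genes, 17.3% and 7.92% passed on these days, and 29.9% and 21.6% had an unadjusted p under 0.05. Ezh2, the Polycomb subunit that dominates in dividing cells, was 49.3, 43.2 and 43.4 CPM in WT and 34.3, 42.4 and 44.1 in KO at day 7 (log2 fold change −0.17, adjusted p = 0.36). At day 14 it was 58.2, 48.9 and 51.9 CPM in WT and 45.4, 42.6 and 42.4 in KO (−0.28, adjusted p = 0.163), without overlap. Ezh1 gave −0.18 and −0.13 on days 7 and 14, Suv39h1 −0.12 and −0.31, and Suv39h2 0.01 and 0.32, all with adjusted p of 0.274 or more.

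Lysine demethylases held 4 of the 12 calls of day 7 among 14 members tested, 3 higher and 1 lower, where 17.3% of all genes passed, 7.11% higher and 10.2% lower. Kdm7a, which removes methyl groups from H3 lysines 9 and 27, was 91.8, 95.2 and 79.5 CPM in WT and 151, 120 and 133 in KO at day 7. KO libraries lay above all 9 WT libraries, of which the highest was at 113 CPM. Its log2 fold change was 0.60 (SE 0.131, adjusted p = 0.00355) at day 7 and 0.23 (adjusted p = 0.337) at day 14, where KO and WT overlapped.

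Kdm5b, an H3 lysine 4 demethylase, was raised on both days. It was 87.1, 83.2 and 83.1 CPM in WT and 125, 106 and 107 in KO at day 7, and 78.9, 93.1 and 84.4 in WT and 119, 115 and 112 in KO at day 14. All 6 of these KO libraries exceeded the highest WT library of any day, 97.8 CPM. Log2 fold changes were 0.41 (SE 0.114, adjusted p = 0.0161) and 0.43 (SE 0.114, adjusted p = 0.0234). The call was lost without WT replicate 2 or 3 or KO replicate 1 at day 7, without WT replicate 1 or 3 or KO replicate 1 at day 14, and with no filter on low counts on both days, at adjusted p of up to 0.0992 and 0.126. At day 14 it was also lost in a model of only the 2 groups compared.

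Kdm6b, an H3 lysine 27 demethylase, was 68.4, 55.9 and 60.8 CPM in WT and 79.6, 76 and 94.4 in KO at day 7, without overlap (log2 fold change 0.43, SE 0.141, adjusted p = 0.0406). This call was lost in 4 of 6 fits without 1 library of that day, at adjusted p of up to 0.149, and in 2 of 8 alternative fits. At day 14 the log2 fold change was 0.35 (adjusted p = 0.143). Kdm6bos, the antisense gene that shares 34% of its exonic bases with Kdm6b, gave 0.36 (adjusted p = 0.151) at day 7, and without strand their shared reads cannot be told apart. Kdm2b, an H3 lysine 36 demethylase that brings a Polycomb complex to CpG islands, was lower at day 7, with 30.4, 27.5 and 28.5 CPM in WT and 19, 24.3 and 24.5 in KO (log2 fold change −0.35, SE 0.119, adjusted p = 0.0474). That call was lost in each of the 6 fits without 1 library of that day and in 5 of 8 alternative fits, at adjusted p of up to 0.316. Kdm1a (LSD1), an H3 lysine 4 demethylase of the CoREST complex, gave −0.07 and −0.04 on days 7 and 14 (adjusted p = 0.668 and 0.868).

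**Figure D3:**
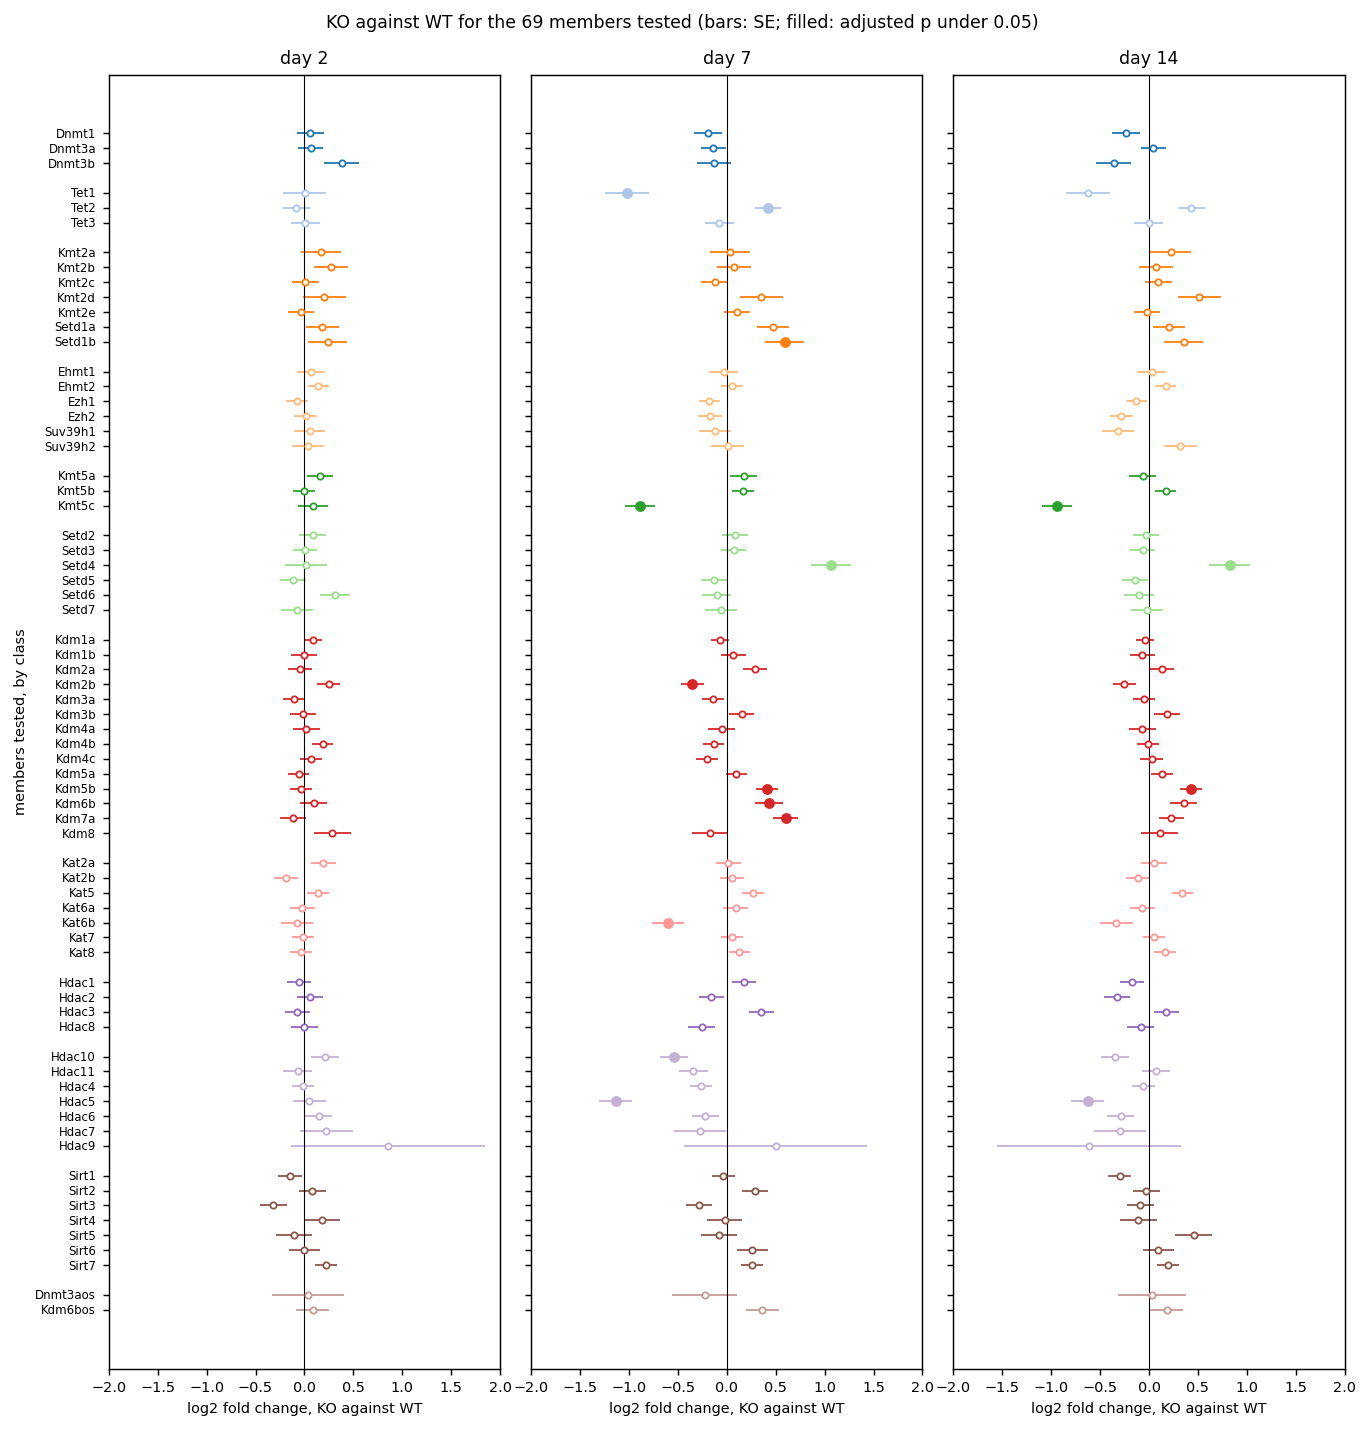
Log2 fold change of KO against WT for each of the 69 members tested, in 1 panel per day and by enzyme class, with bars for the SE and filled points for an adjusted p under 0.05. No point is filled at day 2, 12 are filled at day 7 and 4 at day 14, and most open points lie within 0.5 of 0, with Hdac9 carrying the widest bars.

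Of the 3 DNMT genes tested, 0 passed on any day, with 1 at an unadjusted p under 0.05 at day 2 and 0 at days 7 and 14. Of the 3 TET genes 2 passed at day 7, where 17.3% of all genes passed, and a difference between these 2 families was not tested. Dnmt1 was 119, 123 and 127 CPM in WT and 88.5, 119 and 115 in KO at day 7, which is a log2 fold change of −0.19 (adjusted p = 0.391), and −0.24 (adjusted p = 0.357) at day 14. Dnmt3a gave −0.14 and 0.04 and Dnmt3b −0.13 and −0.36, with adjusted p of 0.25 or more. At day 14 Dnmt3b was 5.44, 5.45 and 5.24 CPM in WT and 3.74, 3.97 and 4.86 in KO, without overlap, whereas at day 2 the KO libraries were the higher ones (log2 fold change 0.38, unadjusted p = 0.0459, adjusted p = 0.999).

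Tet1 and Tet2 moved in opposite directions at day 7. Tet1 was 4.35, 3.07 and 3.15 CPM in WT and 1.6, 1.93 and 1.7 in KO, so that every KO library lay below all 9 WT libraries. Its fold was 0.494 (log2 fold change −1.02, SE 0.223, adjusted p = 0.00364), from 36 to 121 counts per library over the series, and at day 14 the log2 fold change was −0.63 (adjusted p = 0.0947) with no overlap of groups. Tet2 was 69.2, 74.3 and 63.9 CPM in WT and 97.7, 83 and 97.9 in KO (log2 fold change 0.43, SE 0.133, adjusted p = 0.033).

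At day 14 Tet2 was 67.8, 58 and 62.7 CPM in WT and 96.5, 78.7 and 79.1 in KO. The log2 fold change of 0.43 there missed the threshold (adjusted p = 0.0526) and passed it by DESeq2 and with the replicate block, the lowest adjusted p being 0.0243. The day 7 call of Tet2 was lost in 4 of 6 fits without 1 library and with no filter on low counts (adjusted p = 0.0794). Tet3, the most abundant TET gene per kilobase, gave −0.08 and −0.01 on days 7 and 14 (adjusted p = 0.782 and 0.99).

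Of 7 lysine acetyltransferases, Kat6b alone passed at day 7 (14.3%, against 17.3% of all genes) and 0 at day 14. KAT6B acetylates histone H3 in the MOZ and MORF complex. It was 60.1, 53.9 and 51.6 CPM in WT and 28.5, 32.3 and 48.6 in KO, without overlap but with replicate 3 of KO close to WT (log2 fold change −0.60, SE 0.164, adjusted p = 0.0159). In the same 3 KO libraries the stem cell markers summed to 784, 1483 and 1580 CPM, and a link to Kat6b was not tested. The call of Kat6b was lost in 3 of 6 fits without 1 library and in a model of only the 2 groups compared (adjusted p = 0.0522), and at day 14 the log2 fold change was −0.33 (adjusted p = 0.249). Kat2a, the acetyltransferase of the SAGA complex, gave 0.02 and 0.05 (adjusted p = 0.95 and 0.873), and Kat5, that of the TIP60 complex, 0.27 and 0.34 (adjusted p = 0.0997 and 0.0633) with no overlap on either day. Kat5 passed at day 14 by DESeq2 and when genes with a mean count under 50 were left out.

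Of the 7 class II and IV deacetylases, 2 were lower and 0 higher at day 7, where 10.2% of all genes were lower. In 5 of the 7, Hdac7 and Hdac9 being the exceptions, the highest KO library stayed under the lowest WT library of that day. This held for 17.7% of all genes, and the class median log2 fold change was −0.28. In WT, all 7 were higher at day 7 than at day 2 (median 0.38). Groups did not overlap for 6 of them, as for 28.4% of all genes in either direction. The class summed to 141 to 150 CPM in WT at day 2, 171 to 179 in WT at day 7 and 117 to 147 in KO at day 7. Hdac5, a class IIa deacetylase that shuttles between nucleus and cytoplasm and represses MEF2 targets, was 25.7, 24.6 and 25.1 CPM in WT and 9.03, 10.3 and 15 in KO at day 7. All 3 KO libraries lay below the lowest of the 9 WT libraries, 18.3 CPM. At day 14 it was 22.3, 25.8 and 32.1 CPM in WT and 15.9, 17.5 and 18.6 in KO, without overlap, but the highest of these KO libraries lay just above the lowest WT library of any day. Of the 12 members that passed at day 7, 9 had all KO libraries outside the range of the 9 WT libraries, and Hdac10, Kat6b and Kdm2b did not. The same held for 66.4% of all 3690 genes that passed at day 7. Of the 4 members of day 14, Kmt5c and Kdm5b lay outside that range, as did 79.6% of all 1690 genes that passed then.

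The fold of Hdac5 was 0.456 at day 7 (log2 fold change −1.13, SE 0.169, adjusted p = 0.000131), the smallest adjusted p of any member on that day, and 0.648 at day 14 (−0.63, SE 0.168, adjusted p = 0.0248). No alternative fit and no library left out removed the day 7 call, while that of day 14 was lost without WT replicate 3 or any 1 of the 3 KO replicates, at adjusted p of up to 0.135. Hdac10, a class IIb enzyme that deacetylates polyamines, was 17, 14.8 and 17.9 CPM in WT and 8.8, 12.2 and 13.4 in KO at day 7 (log2 fold change −0.53, SE 0.143, adjusted p = 0.0141). The call was lost without WT replicate 3 or KO replicate 1 and in a model of only the 2 groups compared, at adjusted p of up to 0.119, and at day 14 the log2 fold change was −0.35 (adjusted p = 0.16). Hdac4, another class IIa enzyme, gave −0.26 and −0.06 (adjusted p = 0.128 and 0.838).

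Class I deacetylases and sirtuins gave no call at day 7 or 14, where 17.3% and 7.92% of all genes passed. Hdac3, the catalytic subunit of the NCoR and SMRT corepressors, was 48.2, 52.4 and 55.1 CPM in WT and 73.5, 69.2 and 56.4 in KO at day 7, without overlap (log2 fold change 0.35, SE 0.128, adjusted p = 0.0635). It passed only when genes with a mean count under 50 were left out (adjusted p = 0.0379) or without KO replicate 3 (0.0153). Hdac1 gave 0.18 and −0.17 on days 7 and 14 and Hdac2 −0.16 and −0.33, with adjusted p of 0.141 or more. Of the 7 sirtuins, NAD-dependent deacylases, 3 were at an unadjusted p under 0.05 at day 7 and 2 at day 14, near the shares of 29.9% and 21.6% of all genes. Sirt1 gave −0.03 and −0.30 (adjusted p = 0.888 and 0.138).

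The question of whether the effect of the deletion grew from day 2 to day 7 was tested as the difference between the log2 fold changes of the 2 days. For this difference 6 members (Kmt5c, Hdac5, Hdac10, Kdm2b, Kdm7a and Setd4) passed of 69, where 4.37% of all genes passed. Hdac5 and Kmt5c kept this call in each fit without 1 library. They were the only 2 that passed without KO day 2 replicate 2, the library that stood apart. The same was so without several other single libraries, such as KO day 2 replicate 3 or KO day 7 replicate 1. For the difference between days 7 and 14, 0 members passed edgeR's test, 0 passed by DESeq2 and 1 was at an unadjusted p under 0.05, where 0% of all genes passed. All 12 members that passed at day 7 had the same sign at day 14 in different mice, as did 97% of the 3690 genes that passed at day 7. The median ratio of their day 14 to their day 7 log2 fold change was 0.68, and that of all 3690 genes was 0.67. Passing in the same direction at day 14 was seen for 4 of the 12 (33.3%) and for 36.3% of the 3690.

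**Figure D4:**
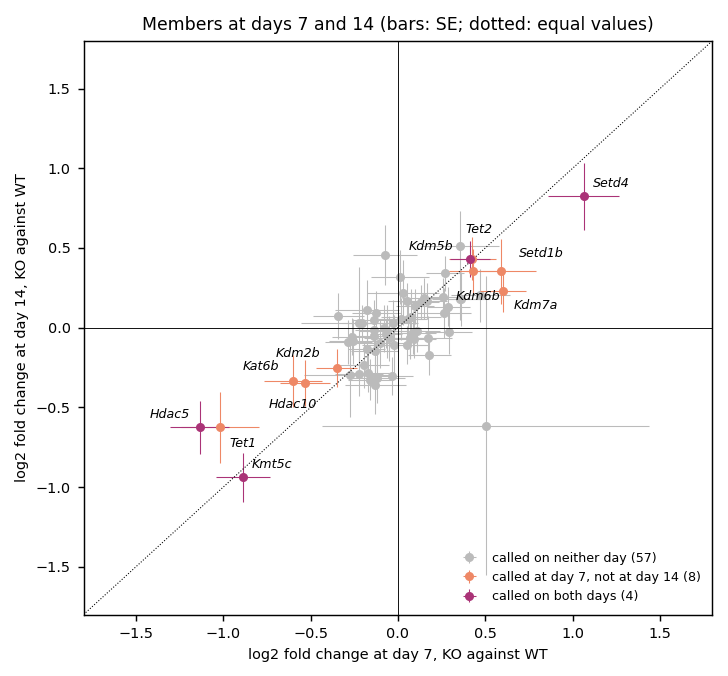
Log2 fold change of KO against WT at day 14 against that at day 7 for the 69 members tested, with bars for the SE and a dotted line for equal values. The 12 members that passed at day 7 lie in the quadrants of equal sign, Kmt5c close to the line of equal values and Hdac5 at −1.13 and −0.63.

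WT crypts also differed between days, which carries the number of injections and the time since them together. At day 7 against day 2, 0 members passed edgeR's test, where 0.553% of all genes passed. At an unadjusted p under 0.05 were 25 members, where 22.4% of all genes were. By DESeq2 5 passed, where 3.72% of the 39045 genes in that fit passed, genes with low counts included. Groups did not overlap for 35 members (50.7%), against 28.4% of all genes. The median log2 fold change was 0.155, against 0.014. The 118 genes behind the share of 0.553% became 535 when WT day 2 replicate 2 was left out, and 0 when replicate 1 of day 2 or replicate 3 of day 7 was. At day 14 against day 2, 3 passed, all higher at day 14, where 1.61% of all genes passed. These were Hdac6, a cytoplasmic tubulin deacetylase, Kdm2b and Setd1b. Setd1b was 38.8, 39.9 and 38.1 CPM at day 2 and 70.3, 67.6 and 68.7 at day 14 in WT (log2 fold change 0.82, SE 0.203, adjusted p = 0.0469).

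Kdm2b was 20.6, 22.1 and 19.5 CPM at day 2 and 29, 30.7 and 29.2 at day 14 (log2 fold change 0.52, adjusted p = 0.0388), and Hdac6 10.7, 10.6 and 11.3 and 15.6, 16.9 and 15.6 CPM (0.57, adjusted p = 0.0465). Neither group overlapped the other for any of these 3. Of the 7 KMT2 and SET1 genes, 5 had all day 14 libraries above all day 2 libraries, as 12.2% of all genes had, with a class median log2 fold change of 0.65, and of 12 enterocyte markers 2 were lower at day 14 with a median of −1.15. The part of the latter in the former was not tested. These day calls moved with the fit, as did those of all genes. By DESeq2 14 members passed, where 3.5% of the 39045 genes in that fit did, genes with low counts included. With 1 library left out 0 to 2 members passed, where 0.101% to 3.23% of all genes did.

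Related genes outside the families were examined for comparison. Of 18 other histone methyltransferases and acetyltransferases, 0 passed edgeR's test at day 7 and 0 at day 14, with 2 at an unadjusted p under 0.05 on each day. Of all genes, 17.3% and 7.92% passed, and 29.9% and 21.6% were under that unadjusted p. The one closest to the threshold at day 7 was Nsd2, an H3 lysine 36 methyltransferase (log2 fold change −0.36, adjusted p = 0.0501). Of 37 partner subunits of the enzymes, 2 were lower at day 7, where 10.2% of all genes were, and 3 at day 14, where 4.69% were. None was higher, where 7.11% and 3.23% of all genes were. Mta1, a subunit of the NuRD deacetylase complex, was lower on both days (−0.57, adjusted p = 0.0072, and −0.45, adjusted p = 0.0475), and so was Sap30, a subunit of the SIN3 deacetylase complex (−0.53, adjusted p = 0.0442, and −0.85, adjusted p = 0.00573).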

How the data were processed

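The authors aligned paired-end reads with STAR 2.7.3 and counted fragments per gene with featureCounts 1.6.4, and deposited the counts per gene of 18 libraries without normalization. Per the file headers the mm10 annotation was GENCODE M23, although a later release is named in the methods. A fragment over several genes went to each of them, multimapping fragments to none, and strand was ignored, so genes with shared exons are uncertain.

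The 20 sex-linked genes that the study removed were left out before normalization. Genes were kept with filterByExpr by group (21349 genes), normalized with TMM and fitted with edgeR 4.0.16's quasi-likelihood method with robust dispersions in 1 model of 18 libraries with a mean per group (limma 3.58.1, R 4.3.3). P-values were adjusted over all genes tested by Benjamini-Hochberg, with a threshold of 0.05. SE is the absolute log2 fold change over the root of F. CPM uses the effective library sizes of the fit, and levels between genes were compared per kb of exon. Prmt1 was compared by an exact two-sided permutation test. Nothing in the labels says that libraries of a group came from separate litters or days, so p-values measure the spread between these mice, and 3 mice per group limit the precision. The study used both sexes and reports that KO and WT mice were matched in age and sex. The labels used here give no sex per mouse, so the matching could not be checked. Groups of different days may differ in sex. Hdac6, Hdac8 and Suv39h1 lie on chromosome X.

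Members and lists were chosen with earlier results of these data known. Named in full were, per class, members passing on both days or else the one with the smallest p, with Dnmt1, Dnmt3a, Dnmt3b, Tet1, Tet2, Tet3, Ezh1, Ezh2, Hdac1, Hdac2, Hdac3, Kdm1a, Kat2a, Suv39h1, Suv39h2 and Sirt1, and all other members that passed. Hdac4, Kat5, Kmt2d, Kmt5a, Kmt5b, Kdm6bos, Setd1a and the members named for their WT level were added after their values were seen. Alternatives were the Wald test of DESeq2 1.42.0 and its size factors, leaving out the 20 most abundant genes, dropping the filter on low counts or raising it to a mean count of 50, keeping the genes that the study removed, modelling the compared groups alone, adding the replicate number as a block, and leaving out single libraries. The DESeq2 Wald test was run on 39045 genes and the fit with no filter on 39046, genes with low counts included. Their shares of all genes are therefore not like those over the 21349 genes, nor like the members, most of which passed the filter. Tables and plots were made in Python 3.11.15 (pandas 2.3.3, scipy 1.17.1, matplotlib 3.10.9, numpy 2.4.6).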

Additional observations from a re-analysis of the deposited data

Results flagged for a closer look

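For 6 members the KO effect at day 7 differed from that at day 2 by a test of the difference itself (edgeR's quasi-likelihood test, adjusted over all genes tested). The day 7 log2 fold change minus the day 2 one was −1.18 for Hdac5 (adjusted p = 0.0072), −0.98 for Kmt5c (adjusted p = 0.014), −0.75 for Hdac10 (adjusted p = 0.0425) and −0.60 for Kdm2b (adjusted p = 0.049). It was 1.05 for Setd4 (adjusted p = 0.048) and 0.72 for Kdm7a (adjusted p = 0.032). Hdac5 and Kmt5c passed in each of the 12 fits without 1 library, whereas each of the other 4 failed in some of them. KO day 2 replicate 2 enters each of these differences, and without it Hdac5 and Kmt5c were the 2 that passed. The same 2 alone passed without KO day 2 replicate 3 or KO day 7 replicate 1. They also did without replicate 1 of WT day 2, or replicate 1 or 3 of WT day 7. Mice of day 2 had received 2 injections and those of day 7 had received 5, so time and the number of injections cannot be told apart.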

How the results depend on the processing

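Of the members' counts, that of KO against WT at day 2 remained 0 under the alternatives. At day 7 the 12 calls became 7 in a model of only the 2 groups compared, and 5 to 9 without 1 library, the lowest without KO day 7 replicate 1 and 6 without WT day 7 replicate 3. Of all genes, 14.8% and 9.43% to 19% passed in these fits, in place of 17.3%. Kmt5c, Hdac5, Tet1, Setd4 and Kdm7a passed in each of those fits. At day 14 the 4 calls became 1 to 3 without 1 library, 1 (Kmt5c) without KO replicate 1 and 2 without KO replicate 3, WT replicate 1 or WT replicate 3. Of all genes, 4.73% to 6.08% passed without 1 library, in place of 7.92%. By DESeq2 6 passed at day 14 (Kat5 and Tet2 in), where 5.22% of the genes in that fit did, and 5 with a mean count of at least 50 (Kat5 in), where 9.79% did. The difference of KO effects between days 7 and 2 gave 3 calls with no filter on low counts and 3 in a model of only the groups compared, in place of 6, and 2 to 7 without 1 library. Of all genes, 2.81%, 3.67% and 1.98% to 5.96% passed in these fits, in place of 4.37%. For WT day 7 against day 2, 1 member passed with the 20 most abundant genes left out, with no filter, with the mean count minimum of 50 and in a model of only the groups compared, and 5 by DESeq2, in place of 0. Of all genes, 1.35%, 2.59%, 3.47%, 2.87% and 3.72% passed in these fits in that order, in place of 0.553%. For WT day 14 against day 2, 5 passed with DESeq2 size factors and 5 without the 20 most abundant genes, 6 with no filter, 7 with a mean count of at least 50, 1 in a model of only the groups compared, 14 by DESeq2 and 0 to 2 without 1 library, in place of 3. Of all genes, 2.07%, 2.06%, 2.59%, 5.41%, 0.14% and 3.5% passed in these fits in that order, and 0.101% to 3.23% without 1 library, in place of 1.61%. The causes were not tested, and fits of fewer libraries have fewer degrees of freedom by construction.

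Directions turned only in uncalled values near 0. The log2 fold change of Kat2a at day 7 was −0.002 without the 20 most abundant genes. That of Suv39h2 at day 7 was −0.009 without those genes, −0.002 both with no filter and with the mean count minimum of 50, and −0.003 with the replicate block. That of Tet3 at day 14 was 0.008 with DESeq2 size factors, 0.009 with the mean count minimum of 50 and 0.007 by DESeq2. Without 1 library, values ranged from −0.027 to 0.12 for Dnmt3a, −0.027 to 0.175 for Kat2a, −0.072 to 0.008 for Kdm1a and −0.055 to 0.043 for Tet3 at day 14, and from −0.239 to 0.022 for Dnmt3b, −0.011 to 0.107 for Kat2a, −0.096 to 0.006 for Sirt1, −0.221 to 0.015 for Suv39h1 and −0.074 to 0.165 for Suv39h2 at day 7. Over the members that the naming rule gave, for KO against WT at days 7 and 14, 649 values kept direction and side of the threshold, 54 lost a call, 4 gained one and 21 turned. Of the members named outside the rule, Kat5 gained a call at day 14 in the 2 fits above, and Setd1a at day 7 with no filter and with the replicate block.

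With the replicate number as a block, 12 members passed at day 7 (Setd1a in, Kdm2b out), 5 at day 14 (Tet2 in) and 5 for the difference between days 7 and 2. Of all genes, 19.8%, 9.86% and 6.4% passed with the block. Same-numbered KO and WT libraries deviated together at day 14 (r = 0.227, 0.18 and 0.159 for replicates 1 to 3), but not for each number at day 2 (0.0478, 0.158 and 0.381) or day 7 (−0.159, 0.206 and 0.0787), so the numbers were not taken to pair the mice.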
